A study of Mus musculus with 6 samples.

Results

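The 40 genes described here code for proteins that bring fatty acids into heart muscle, activate them and oxidise them in mitochondria, that use ketone bodies, or that store and release fat beside the mitochondria. They were given as a list of mouse symbols, each matched by its current or an older symbol to an NCBI gene number, and they made up 40 of the 17441 genes listed in any of 6 RNA sequencing libraries of mouse heart. The mice were male, on a C57BL/6 background and 12 weeks old by the labels, while the methods of the study give a range of ages around that. Wild-type mice had surgery without a ligature (WT Sham) or with the left anterior descending artery tied off, which causes a myocardial infarction (WT MI), and mice carrying a Card9 knockout allele had the artery tied off as well (Card9 KO MI). Tissue was taken 3 days after surgery, from below the ligature by the methods of the study, and each of the 3 groups had 2 libraries. There was no sham-operated Card9 KO group, so a difference of genotype without infarction cannot be told apart from one that appears after it.

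Values are deposited as FPKM, the number of fragments of a gene scaled by its length in kilobases and by the mapped fragments of the library, with 2 decimals and with genes at 0 left out of the files. The comparisons use FPKM and no fragment counts. From the spacing of low FPKM values the libraries were estimated to hold 3149000 and 3007000 fragments (WT Sham), 4019000 and 3892000 (WT MI), and 4272000 and 4106000 (Card9 KO MI). Between 62.5% and 66.6% of those low values fell within 0.1 of a whole number of fragments, so these depths, and any fragment number worked out from them, are estimates. At such depths 3 fragments on a transcript of 2 kilobases correspond to 0.351 to 0.499 FPKM, which covers counting error only. All 40 genes were listed in all 6 libraries, from 0.81 FPKM for Acsl6 to 5811.69 FPKM for Fabp3. In both WT Sham libraries 25 of them were above 100 FPKM, and 4 were below 5 FPKM in at least 1 library.

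Card9 itself (NCBI gene 332579, mm9 chr2:26207696-26216438, minus strand) was at 0.99 and 1.03 FPKM in the WT Sham libraries, 3.39 and 5.08 FPKM in the WT MI libraries, and 9.85 and 6.94 FPKM in the libraries labelled Card9 KO MI. Both libraries labelled as knockout therefore lay above both WT MI libraries for the gene they are labelled as lacking, and the FPKM does not show whether its reads fall inside or outside a deleted stretch. The group is called the labelled knockout for that reason, and WT Sham is called sham.

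Long-chain fatty acids enter heart muscle cells through carriers, are bound by a small cytosolic protein and are joined to coenzyme A, and the carnitine shuttle then moves the acyl group across the inner mitochondrial membrane. In the matrix each round of beta-oxidation runs through a dehydrogenase, a hydratase, a second dehydrogenase and a thiolase, with the first electrons passed to the respiratory chain by the electron transfer flavoprotein. The adult heart draws most of its ATP from this route and can also burn ketone bodies, and nuclear receptors of the PPAR and ERR families are known to drive many of the genes.

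Promoter sequences are shown for the member with the largest fall and the member with the largest rise after infarction (Ucp3 and Ucp2), for 1 of the muscle and liver forms of the carnitine shuttle enzyme (Cpt1a), for a pair of near copies (Acot1 and Acot2), for a member lower in the labelled knockout than in WT MI (Acsl6), and for the stretch between 2 genes that are read in opposite directions and moved alike (Hadha and Hadhb). They come from RefSeq, in a table built on GRCm38.p6, and the mm9 positions were found by exact match of each sequence to that genome. Each is the 250 bases before the RefSeq start, except Hadha-Hadhb, which is the 85 bases between the annotated genes, and all are printed on the plus strand of chr7:107621250-107621499 (Ucp3), chr7:107641617-107641866 (Ucp2), chr19:3323051-3323300 (Cpt1a), chr12:85350202-85350451 (Acot1), chr12:85328561-85328810 (Acot2), chr11:54117076-54117325 (Acsl6) and chr5:30481703-30481787 (Hadha-Hadhb). Capitals mark the nuclear receptor half-site AGGTCA on either strand, together with its extended form TCAAGGTCA, which contains AGGTCA. For Acsl6 only 1 of its annotated starts is shown, the one whose window holds these words.
Ucp3: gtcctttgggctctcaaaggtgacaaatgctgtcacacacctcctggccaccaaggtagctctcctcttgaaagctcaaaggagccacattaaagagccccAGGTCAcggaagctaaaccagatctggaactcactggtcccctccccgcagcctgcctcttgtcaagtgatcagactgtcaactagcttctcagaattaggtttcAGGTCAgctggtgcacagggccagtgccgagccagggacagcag
Ucp2: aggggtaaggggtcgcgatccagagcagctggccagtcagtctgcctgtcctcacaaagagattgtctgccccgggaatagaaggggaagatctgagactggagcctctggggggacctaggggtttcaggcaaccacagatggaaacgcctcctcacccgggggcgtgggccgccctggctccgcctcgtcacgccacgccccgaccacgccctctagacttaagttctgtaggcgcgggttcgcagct
Cpt1a: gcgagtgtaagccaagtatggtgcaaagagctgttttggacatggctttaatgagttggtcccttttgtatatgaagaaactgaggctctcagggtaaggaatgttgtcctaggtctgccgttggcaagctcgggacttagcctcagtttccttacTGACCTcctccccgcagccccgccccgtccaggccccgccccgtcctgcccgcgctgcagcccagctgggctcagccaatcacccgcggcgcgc
Acot1: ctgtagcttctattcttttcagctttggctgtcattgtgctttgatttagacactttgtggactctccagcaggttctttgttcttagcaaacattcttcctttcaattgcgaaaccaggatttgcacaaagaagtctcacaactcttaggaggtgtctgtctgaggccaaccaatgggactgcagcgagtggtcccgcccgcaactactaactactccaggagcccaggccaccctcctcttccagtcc
Acot2: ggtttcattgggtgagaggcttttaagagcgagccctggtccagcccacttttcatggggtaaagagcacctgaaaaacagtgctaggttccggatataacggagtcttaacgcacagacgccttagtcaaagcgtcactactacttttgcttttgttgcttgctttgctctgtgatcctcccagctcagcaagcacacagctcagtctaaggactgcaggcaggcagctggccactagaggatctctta
Acsl6: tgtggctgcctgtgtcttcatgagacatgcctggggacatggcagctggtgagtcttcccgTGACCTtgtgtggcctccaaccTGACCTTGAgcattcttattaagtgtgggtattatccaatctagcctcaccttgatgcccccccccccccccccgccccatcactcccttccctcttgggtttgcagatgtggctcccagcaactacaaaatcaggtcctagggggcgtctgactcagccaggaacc
Hadha-Hadhb: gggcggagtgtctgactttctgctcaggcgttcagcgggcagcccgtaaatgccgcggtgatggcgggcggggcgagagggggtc

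Promoter windows of 250 bases before and 50 bases after the start were in the table for 33 of the 40 members, 41 windows in all, and there was none for Cpt1b, Acaa2, Decr1, Lpl, Acot13, Acat1 and Dgat2. AGGTCA lay on either strand in 10 of the 41 windows (24.4%), from 9 genes, beside 5340 of all 32851 windows in the table (16.3%). TCAAGGTCA lay in 1 of the 41 (2.44%), that of 1 start of Acsl6, beside 139 of all windows (0.423%). The windows at the other starts of Acsl6 held neither word. Ucp3 held AGGTCA at 149 and 44 bases before its start, and Cpt1a held the reverse complement at 94 bases. The printed window of Acsl6 held the reverse complement at 189 and 167 bases before that start. The windows of Ucp2, Bdh1, Pnpla2, Acot1 and Acot2 held neither word. The members' windows had a median GC content of 60.7%, beside 52.7% over all windows, and a match of letters describes the sequence only. The windows of Hadha and Hadhb shared 228 bases, and 6904 bases lay between the Ucp3 and Ucp2 genes, which are neighbours on chromosome 7.

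Comparisons were made with limma on the log2 of FPKM plus 1, over the 13120 genes that reached 1 FPKM in at least 2 libraries, and all 40 members were among them. A gene is called when its p-value, with Benjamini-Hochberg adjustment over the 13120 genes, is below 0.05. Adding 1 FPKM keeps low values from giving extreme ratios, and it also makes the log2 fold change of a gene at a few FPKM smaller than the ratio of its FPKM. No label says that the libraries of a group come from separate animals, so the p-values measure the spread between these samples, and an exact permutation test of 2 libraries against 2 cannot reach 0.05.

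The comparison of WT MI with WT Sham asks what the infarct changes in these genes at 3 days. Of the 40 members 31 were called lower in WT MI, beside 9.39% of all genes tested, and 1 was called higher, beside 27.7% of all genes. The members' median log2 fold change was −0.72, and that of all genes tested was 0.19. Both WT MI libraries lay below both WT Sham libraries for 37 members, as they did for 22.1% of all genes, both lay above for Ucp2 and Cpt1a, beside 48.3% of all genes, and the groups overlapped for Slc27a1. Of the 32 called members 24 were called under each of the 13 alternative settings tried. Of the 8 members not called 7 gained a call in some alternative: Slc25a20, Eci2, Acsl6, Bdh1, Pnpla2 and Lipe were called lower after both upper-quartile scaling and quantile normalization, and Slc27a1 without WT Sham replicate 1. Scaling moves the split of all genes: it was 1232 lower and 3637 higher on deposited FPKM, 2064 and 2658 after upper-quartile scaling, and 2447 and 2198 after quantile normalization. The median of all genes moved from 0.19 to 0.02 and −0.09 under those scalings, while the members' median was −0.92 and −0.84, with 37 and 36 members called lower.

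**Figure D1:**
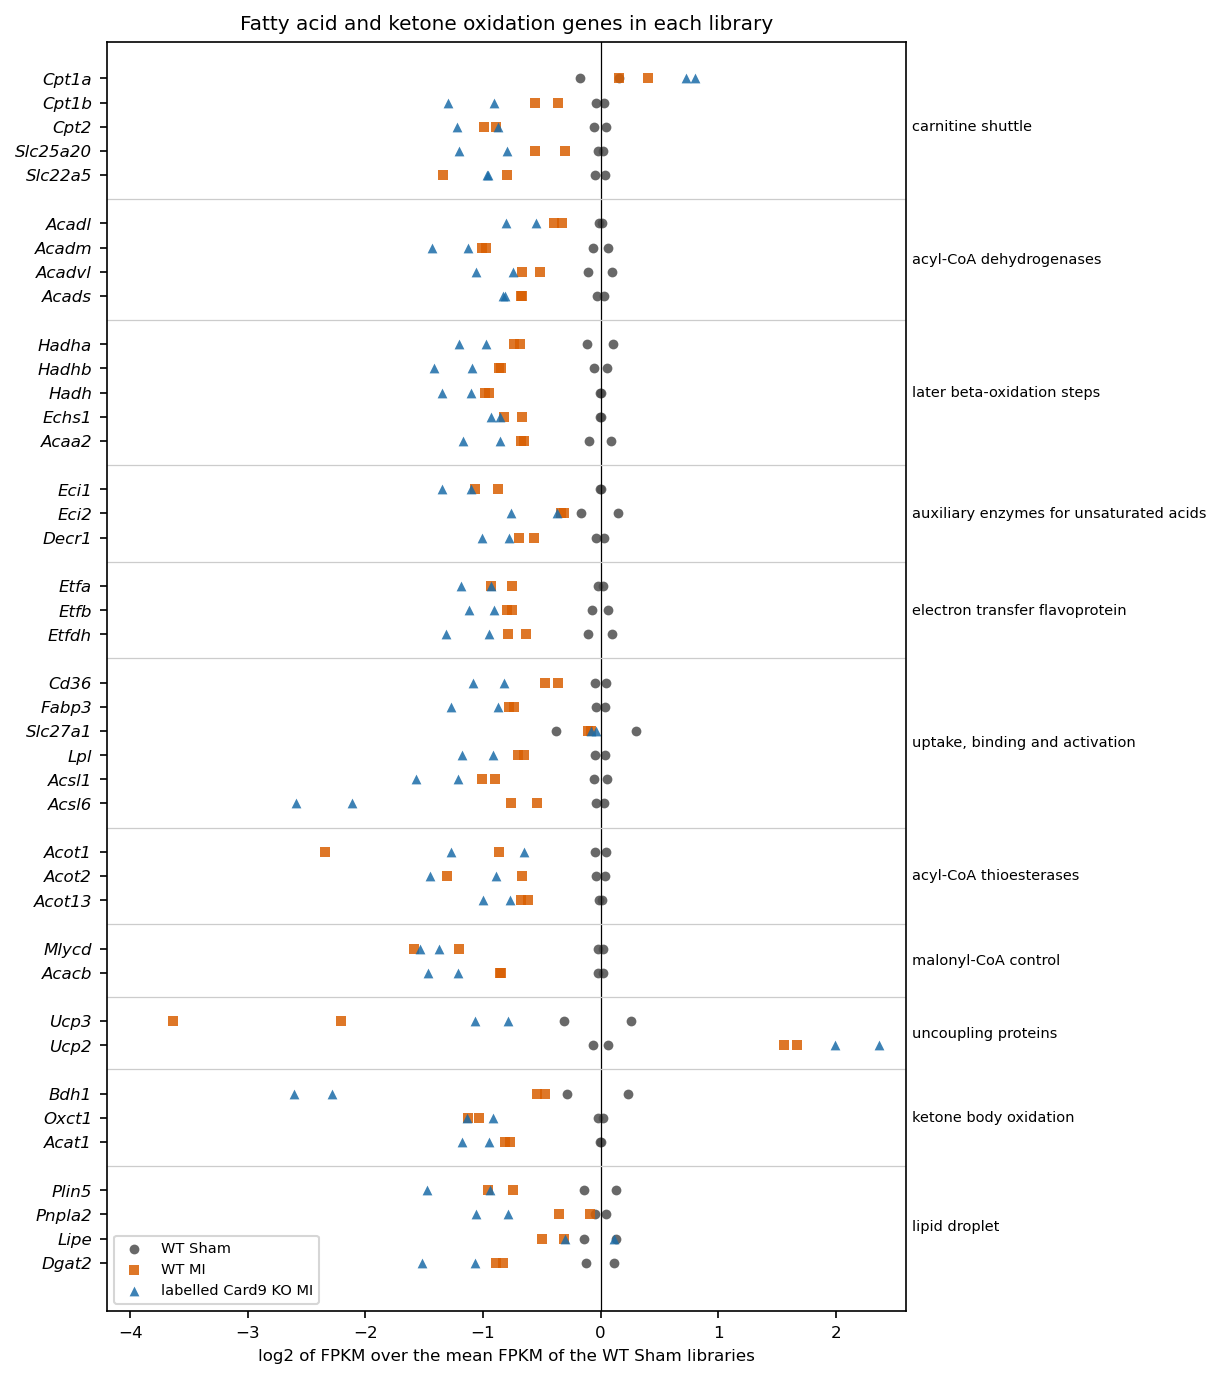
Each point is 1 library, placed on the horizontal axis by the log2 of its FPKM over the mean FPKM of the WT Sham libraries, for the 40 genes ordered by role. Most members lie left of 0 in both infarct groups, Ucp2 and Cpt1a lie right of 0, and Ucp3, Bdh1, Acsl6 and 1 WT MI library of Acot1 hold the points farthest to the left.

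The plot of each library over its sham mean shows that the 40 genes did not move by one common amount. In WT MI the log2 fold changes ran from −2.54 for Ucp3 to 1.56 for Ucp2. By role, the median log2 fold change was −1.09 for malonyl-CoA control, −0.96 for the thioesterases, −0.78 for ketone oxidation, −0.77 for the electron transfer flavoprotein, −0.74 for the later steps of beta-oxidation, −0.62 for both the acyl-CoA dehydrogenases and the auxiliary enzymes, −0.60 for both uptake and lipid droplet genes, and −0.46 for the carnitine shuttle. The 2 uncoupling proteins, Ucp3 and Ucp2, went opposite ways, with a median of −0.49.

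Summed over the 40 members, FPKM was 15771 and 16094 in the WT Sham libraries, 9769 and 9607 in the WT MI libraries, and 6960 and 8615 in the labelled knockout. That is 3.23% and 3.35%, 2.06% and 2.01%, and 1.47% and 1.84% of all FPKM of each library. The groups did not overlap, and the spread between the labelled knockout libraries was the widest of the 3 groups. The sum of 16 cardiomyocyte markers was 56148 and 57049 FPKM, then 36532 and 36998, then 30044 and 34760, in the same order of libraries. Of those markers 10 of 16 were called lower in WT MI than in sham (median −0.46 on the log2 scale), and the most abundant over all libraries, Actc1, was at 10230.01 and 9931.06, then 7909.54 and 8909.94, then 6904.70 and 8531.30 FPKM. Fewer heart muscle cells in the tissue and less RNA of these genes in each cell cannot be told apart in whole tissue, and the part of these markers in the members' result was not tested.

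**Figure D2:**
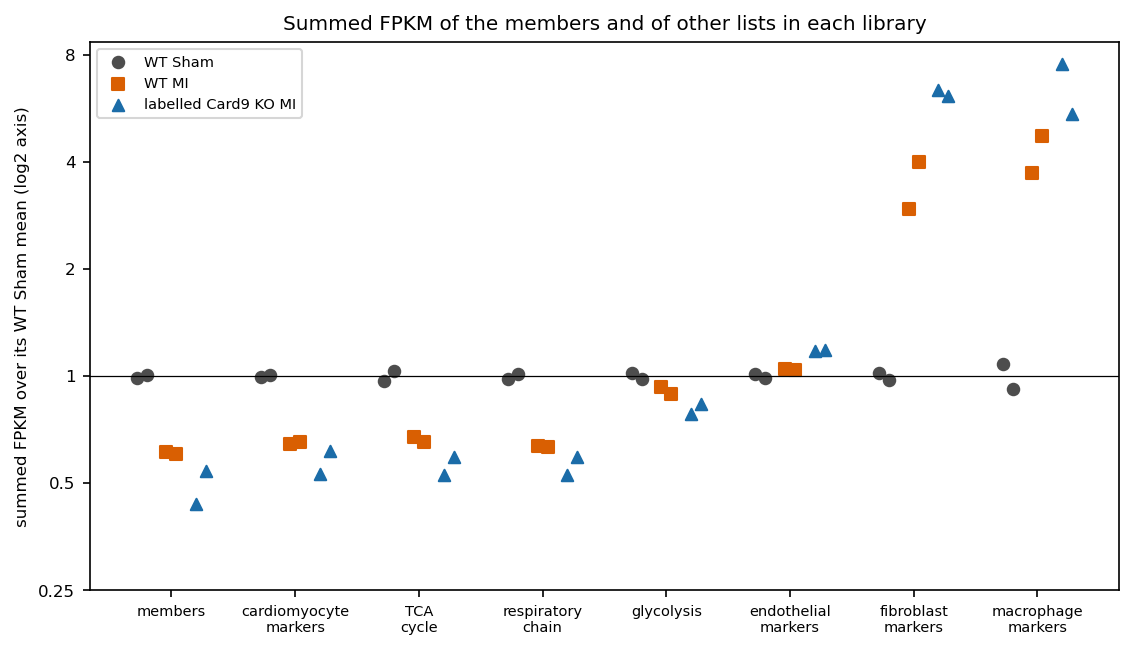
Summed FPKM of each list in each library, divided by its WT Sham mean, on a log2 vertical axis, with 1 point per library. The members, at a mean of 0.608 of sham in WT MI and 0.489 in the labelled knockout, lie beside the cardiomyocyte, TCA cycle and respiratory chain lists, while fibroblast and macrophage markers lie far above 1.

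Markers of other cells moved the other way, as the plot of summed lists shows. All 12 macrophage markers were called higher in WT MI than in sham, with summed FPKM of 426 and 364, then 1471 and 1869, then 2975 and 2157, and the most abundant, Lyz2, at 151.76 and 123.51, then 617.29 and 830.24, then 1168.49 and 821.45 FPKM. For fibroblast markers 6 of 8 were called higher, with sums of 512 and 489, then 1479 and 2003, then 3188 and 3059 FPKM, and the most abundant over all libraries was Col1a1. All 6 neutrophil markers that could be tested were called higher, with sums over 10 markers of 7.64 and 5.40, then 212 and 93.2, then 59.8 and 46.7 FPKM. S100a9 was the most abundant, and the defining markers Ly6g and Camp were at 0 in all libraries. Markers this low in sham can pass the filter through the infarct libraries alone, which favours calls in that direction. The 8 endothelial markers summed to 341 and 334, then 353 and 351, then 396 and 399 FPKM, with Cdh5 the most abundant, and 2 were called higher and 1 lower in WT MI. Their part in the members' result was not tested.

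Fat tissue around the heart expresses several members, so its markers are given too. The 8 adipocyte markers summed to 11.1 and 9.98, then 39.3 and 8.87, then 1.77 and 19.2 FPKM, with Car3 the most abundant and Lep at 0 in all libraries. Their sums varied more within each infarct group than between groups, and limma called 0 of the 3 that could be tested in any of the 3 comparisons (0 at an unadjusted p below 0.05). The 3 brown adipocyte markers summed to 26.3 and 23.3, then 33.4 and 25, then 17.2 and 23.6 FPKM, almost all of it Cidea, and limma called 0 of the 2 tested in any of the 3 comparisons. At an unadjusted p below 0.05 there were 0 in WT MI against WT Sham, 1 in the labelled knockout against WT MI (Cidea, lower by 0.50) and 0 in the labelled knockout against WT Sham. Erythroid markers, of which 3 of 4 tested were called higher in WT MI, summed to 1053 and 479, then 1786 and 2922, then 1778 and 928 FPKM, with Hba-a1 the most abundant and Hbb-b2 at 0. Their part was not tested.

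Dividing each member by the summed cardiomyocyte markers of the same library gives a scale on which an equal loss of all heart muscle RNA cancels. On that scale the median ratio of WT MI to WT Sham over the 40 members was 0.929, with both WT MI libraries below both WT Sham libraries for 20 members, beside 3.85% of all genes tested, above for 10, beside 82.3%, and 10 members overlapping. The ratios ran from 0.228 for Ucp3 to 4.72 for Ucp2. With the geometric mean of the 16 markers as the divisor the median ratio was 0.867, with 27 members lower, beside 5.35% of all genes, 7 higher, beside 78.2%, and 6 overlapping. The members were thus near the markers as a group and far from them in single cases, and no test was made on either scale.

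Other energy genes of the heart give a further background. The 18 TCA cycle genes had 16 called lower in WT MI and a median of −0.60 on the log2 scale, and the 42 respiratory chain and ATP synthase genes had 41 called lower with a median of −0.59. The 18 glycolysis genes had 5 called lower and 7 called higher, with a median of 0.20. The members' median of −0.72 lay lower than all 3, and the difference between lists was not tested.

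The carnitine shuttle has 5 members, and its entry enzyme exists in a muscle form and a liver form. Cpt1b (NCBI gene 12895), the muscle form, was at 267.63 and 280.65 FPKM in sham, 213.63 and 185.87 in WT MI, then 111.41 and 146.67 in the labelled knockout. Its 3 groups did not overlap and stepped down from sham to WT MI to the labelled knockout. Its log2 fold change was −0.46 (adjusted p 0.035) for WT MI against WT Sham and −0.64 (adjusted p 0.073) for the labelled knockout against WT MI. The first call was lost with no filter on low values and when any 1 of the 4 WT libraries was left out, at −0.56 to −0.36, and the second difference was called without Card9 KO MI replicate 2, at −0.83.

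Cpt1a (NCBI gene 12894), the liver form, was at 11.64 and 14.64 FPKM in sham, 17.42 and 14.66 in WT MI, then 22.95 and 21.70 in the labelled knockout. It was the member of the shuttle that went up: the sham and WT MI values almost met, and both labelled knockout libraries lay above all others. Against WT Sham the labelled knockout libraries were higher by a log2 fold change of 0.73 (adjusted p 0.0048), while neither WT MI against WT Sham (0.27, adjusted p 0.19) nor the labelled knockout against WT MI (0.46, adjusted p 0.15) was called. For WT MI against WT Sham the value ran from 0.12 to 0.43 when 1 library was left out. The FPKM ratio of Cpt1b to Cpt1a was 23.0 and 19.2 in sham, 12.3 and 12.7 in WT MI, then 4.85 and 6.76 in the labelled knockout, so the muscle form stayed the more abundant per kilobase in every library. The coding sequences of the pair are 67.8% identical.

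Cpt2 (NCBI gene 12896), which reforms acyl-CoA inside the membrane, was at 114.39 and 122.66 FPKM in sham, 59.63 and 64.00 in WT MI, then 50.74 and 64.69 in the labelled knockout. Its values fell once, between sham and both infarct groups, and the infarct groups overlapped. After infarction Cpt2 fell by 0.93 on the log2 scale (adjusted p 0.0012). Slc22a5, the carnitine importer of the cell membrane, followed the same course, with 9.77 and 10.36 FPKM in sham, 3.98 and 5.79 in WT MI, then 5.19 and 5.14 in the labelled knockout. It fell by 0.93 on the log2 scale after infarction (adjusted p 0.0058). Slc25a20, the carnitine carrier of the inner membrane, was nearer to Cpt1b, at a log2 fold change of −0.43 for WT MI against WT Sham (adjusted p 0.056) and −0.99 for the labelled knockout against WT Sham (adjusted p 0.0012). When either labelled knockout library was left out the first of these was called, at an unchanged −0.43.

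Acyl-CoA dehydrogenases make the first step of each round, each for its own range of chain lengths, and all 4 were called lower in WT MI. Acadl (NCBI gene 11363), for long chains, had the highest mean and was at 547.02 and 556.54 FPKM in sham, 440.06 and 420.03 in WT MI, then 316.18 and 376.38 in the labelled knockout. Acadm (NCBI gene 11364), for medium chains, was at 648.09 and 708.99 FPKM in sham, 344.68 and 336.72 in WT MI, then 251.98 and 310.61 in the labelled knockout. In sham hearts Acadm was the more abundant of the pair per kilobase, and in all infarct libraries Acadl was. WT MI against WT Sham gave a log2 fold change of −0.99 for Acadm (adjusted p 5.9e-04) and −0.36 for Acadl (adjusted p 0.029), and whether these 2 changes differ was not tested. The call of Acadl was lost with no filter on low values and when any 1 of the 4 WT libraries was left out, at −0.39 to −0.33. Acads, for short chains, fell by 0.66 (adjusted p 0.0010), and Acadvl, for very long chains, fell by 0.58 (adjusted p 0.011), a call lost without WT Sham replicate 2 (−0.48) or WT MI replicate 2 (−0.51). Between the labelled knockout and WT MI the 4 log2 fold changes were −0.32 to −0.15, none called by limma. At an unadjusted p below 0.05, 3 of 4 were lower, beside 8.57% of all genes tested and 8 of 16 cardiomyocyte markers. When 1 library was left out the log2 fold changes ran from −0.44 to −0.19 for Acadl, −0.43 to −0.13 for Acadm and −0.47 to −0.15 for Acadvl.

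The later steps of each round are made by the trifunctional protein, whose subunits are Hadha and Hadhb, and by Hadh, Echs1 and Acaa2. Hadhb (NCBI gene 231086) was at 654.63 and 705.90 FPKM in sham, 378.90 and 374.37 in WT MI, then 255.33 and 319.29 in the labelled knockout. Hadha (NCBI gene 97212) was at 458.63 and 534.70 FPKM in sham, 308.37 and 297.40 in WT MI, then 215.66 and 252.57 in the labelled knockout. Both subunits stepped down through the 3 groups without overlap. Their ratio, Hadhb over Hadha in FPKM, stayed within 1.18 to 1.43 over the 6 libraries. The annotated genes lie 85 bases apart on opposite strands, and since the strand setting and annotation behind the deposited values are not stated, reads near that stretch may have been given to either gene. The log2 fold change of WT MI against WT Sham was −0.85 for Hadhb (adjusted p 0.0013) and −0.71 for Hadha (adjusted p 0.0026).

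Hadh (NCBI gene 15107), the dehydrogenase for shorter hydroxyacyl groups, was at 390.87 and 390.22 FPKM in sham, 197.17 and 202.03 in WT MI, then 153.81 and 181.55 in the labelled knockout. Replicates were close in both WT groups and the 3 groups did not overlap. Its log2 fold change was −0.96 for WT MI against WT Sham (adjusted p 3.5e-04), the largest of the 5 later steps. Echs1, the hydratase, and Acaa2, a thiolase, were called lower as well, at −0.74 and −0.66. Against WT MI all 5 were lower in both labelled knockout libraries, as were 21.9% of all genes, at −0.40 to −0.15, and limma called none. At an unadjusted p below 0.05, 4 of 5 were lower, beside 8.57% of all genes tested and 8 of 16 cardiomyocyte markers. When 1 library was left out the 5 lay within −0.56 (Hadhb) to −0.07 (Echs1).

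Unsaturated fatty acids need auxiliary enzymes that move or remove their double bonds. Eci1 (NCBI gene 13177), an isomerase of the mitochondrion, was at 198.89 and 200.58 FPKM in sham, 109.24 and 95.43 in WT MI, then 78.24 and 93.01 in the labelled knockout. Eci2, its relative, was at 73.26 and 91.56 FPKM in sham, 65.26 and 66.36 in WT MI, then 48.66 and 63.70 in the labelled knockout. The sham libraries of Eci1 were close and lay well above its infarct libraries, while those of Eci2 lay far apart. In WT MI against WT Sham, log2 fold changes were −0.96 for Eci1 (adjusted p 6.4e-04) and −0.31 for Eci2 (adjusted p 0.15). The value of Eci2 ran from −0.47 to −0.15 when 1 library was left out. Decr1, the dienoyl-CoA reductase, fell by 0.62 (adjusted p 0.0035).

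The electron transfer flavoprotein takes electrons from the acyl-CoA dehydrogenases, and its 2 subunits were near each other in every library. Etfa was at 331.08 and 341.04 FPKM in sham, 198.84 and 176.68 in WT MI, then 147.99 and 176.31 in the labelled knockout. Etfb was at 321.88 and 353.72 FPKM in sham, 194.26 and 200.63 in WT MI, then 155.15 and 180.46 in the labelled knockout. The FPKM ratio of Etfb to Etfa ran from 0.972 to 1.14 over the 6 libraries. Etfa fell by 0.84 and Etfb by 0.77 on the log2 scale after infarction (adjusted p 0.0011 for each), and Etfdh, which hands the electrons to ubiquinone, fell by 0.70 (adjusted p 0.0062).

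Uptake, binding and activation come before the shuttle and hold the most abundant member. Fabp3 (NCBI gene 14077), the fatty acid binding protein of heart muscle, was at 5811.69 and 5519.19 FPKM in sham, 3305.02 and 3410.72 in WT MI, then 2349.54 and 3086.89 in the labelled knockout. The next member, Lpl, did not pass 1758.30 FPKM in any library. Fabp3 fell by 0.75 on the log2 scale after infarction (adjusted p 0.0044), and after quantile normalization, which sets the highest values of all libraries equal, the log2 fold change was −0.03. In the labelled knockout it was −0.32 from WT MI (adjusted p 0.25), and −0.51 and called without Card9 KO MI replicate 2, or −0.12 without replicate 1.

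Cd36, a fatty acid carrier of the cell membrane, was at 503.97 and 536.71 FPKM in sham, 403.88 and 375.11 in WT MI, then 246.04 and 293.78 in the labelled knockout. The 3 groups stepped down without overlap. For Cd36 the log2 fold change was −0.42 for WT MI against WT Sham (adjusted p 0.020) and −0.53 for the labelled knockout against WT MI (adjusted p 0.061), where the first was not called when any 1 of the 4 WT libraries was left out (−0.47 to −0.36) and the second was called without Card9 KO MI replicate 2 (−0.66). Lpl, which frees fatty acids from lipoproteins in the capillaries, was at 1657.02 and 1758.30 FPKM in sham, 1086.93 and 1047.10 in WT MI, then 755.72 and 907.91 in the labelled knockout, and it fell by 0.68 after infarction. Slc27a1, another carrier, was at 39.17 and 62.94 FPKM in sham, 47.45 and 48.31 in WT MI, then 49.59 and 48.23 in the labelled knockout. Its 4 infarct libraries lay between its 2 sham libraries, and the log2 fold change of −0.05 (adjusted p 0.86) turned to −0.39, a call, without WT Sham replicate 1 and to 0.28 without WT Sham replicate 2.

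Acsl1 and Acsl6 join fatty acids to coenzyme A. Acsl1 (NCBI gene 14081), the main form in heart, was at 368.89 and 397.15 FPKM in sham, 205.79 and 190.44 in WT MI, then 129.11 and 164.97 in the labelled knockout. Acsl6 (NCBI gene 216739), known mainly from brain, was at 4.77 and 5.0 FPKM in sham, 2.89 and 3.36 in WT MI, then 0.81 and 1.13 in the labelled knockout. For both genes the 3 groups were ordered sham, WT MI, labelled knockout with no overlap, at levels that lie far apart per kilobase. Acsl1 fell by 0.95 after infarction (adjusted p 0.0011). It was at −0.44 in the labelled knockout from WT MI (adjusted p 0.12), or −0.61 to −0.26 when 1 library was left out. Acsl6 was the other way round, with −0.51 (adjusted p 0.066) after infarction and −1.07 (SE 0.19, adjusted p 0.047) in the labelled knockout from WT MI. At the estimated depths and for its longest annotated transcript, the Acsl6 values correspond to about 87.2 and 87.3, then 67.4 and 75.9, then 20.1 and 26.9 fragments. The Acsl6 call in the labelled knockout held in 3 of the 13 alternative settings and was lost when any 1 of the 6 libraries was left out, at −1.19 to −0.95. Its size depended on the amount added to FPKM, at −1.60 with a pseudocount of 0.1 (not called) and −0.44 with a pseudocount of 5 (called), with adjusted p from 0.036 to 0.23 over the 13.

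Thioesterases split acyl-CoA back into fatty acid and coenzyme A. Acot13, the most abundant, was at 399.52 and 394.31 FPKM in sham, 247.76 and 258.25 in WT MI, then 199.07 and 232.26 in the labelled knockout, and fell by 0.65 after infarction (adjusted p 0.0020). Acot2 (NCBI gene 171210), the mitochondrial form, was at 55.48 and 58.58 FPKM in sham, 35.99 and 23.13 in WT MI, then 20.86 and 30.80 in the labelled knockout. Acot1 (NCBI gene 26897), the cytosolic form, was at 8.03 and 8.55 FPKM in sham, 4.56 and 1.63 in WT MI, then 3.44 and 5.29 in the labelled knockout. Both were high in sham, and in both the WT MI libraries lay far apart and overlapped the labelled knockout. The log2 fold change of WT MI against WT Sham was −0.96 for Acot2 (adjusted p 0.014) and −1.28 for Acot1 (adjusted p 0.021). Without WT MI replicate 2 neither was called, at −0.65 and −0.74, and the calls were also lost without WT Sham replicate 2 (−0.92 and −1.24) and, for Acot1, without WT Sham replicate 1 (−1.32) or with no filter on low values. The 2 genes are neighbours on chromosome 12 with coding sequences that are 85.7% identical, so reads may be shared between them to an unknown degree. Their promoter windows are 50.3% identical in an alignment with gaps. The identity of unrelated windows was not measured, so this value does not show that the promoters are alike.

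Malonyl-CoA blocks the entry enzyme of the shuttle, and 2 members set its level. Acacb (NCBI gene 100705), which makes it at the mitochondrial surface, was at 71.22 and 69.55 FPKM in sham, 39.01 and 39.15 in WT MI, then 25.46 and 30.37 in the labelled knockout. Mlycd (NCBI gene 56690), which breaks it down, was at 51.07 and 49.85 FPKM in sham, 21.95 and 16.81 in WT MI, then 17.45 and 19.43 in the labelled knockout. Synthesis and breakdown genes were both lower in every infarct library than in every sham library. After infarction Mlycd fell by 1.35 on the log2 scale (adjusted p 3.6e-04) and Acacb by 0.83 (adjusted p 0.0011). From WT MI to the labelled knockout Acacb was at −0.48 (adjusted p 0.085) and Mlycd at −0.06, where the groups overlapped.

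The uncoupling proteins are carriers of the inner mitochondrial membrane that accompany fatty acid use, and in WT MI against WT Sham the 2 of them gave the lowest and the highest log2 fold change of the 40 members. Ucp3 (NCBI gene 22229, mm9 chr7:107621499-107634941, plus strand) was at 20.09 and 29.82 FPKM in sham, 2.01 and 5.39 in WT MI, then 11.92 and 14.49 in the labelled knockout. Both WT MI libraries were the lowest, and the labelled knockout lay between WT MI and sham and overlapped neither. As means, Ucp3 was 25 ± 6.88 FPKM in sham, 3.70 ± 2.39 in WT MI and 13.2 ± 1.82 in the labelled knockout (SD, n = 2 each). By limma with Benjamini-Hochberg adjustment it fell by 2.54 on the log2 scale after infarction (SE 0.34, adjusted p 0.0011). In the labelled knockout it was 1.69 above WT MI (SE 0.34, adjusted p 0.060, not called). The second value was 2.23 and called without WT MI replicate 2, but 1.15 when replicate 1 was left out instead. It was also called with a pseudocount of 5 (1.09) and with the replicate block (1.69), and its adjusted p ran from 0.041 to 0.25 over the 13 alternatives. The labelled knockout against WT Sham was at −0.85 (adjusted p 0.071) and was called lower in 7 of the 13 alternatives: a pseudocount of 5, upper-quartile scaling, quantile normalization, only the 2 groups compared, the replicate block, and leaving out either WT MI library. Over the 13 it ran from −1.12 to −0.58, with adjusted p from 0.016 to 0.3.

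Ucp2 (NCBI gene 22228, mm9 chr7:107641846-107650529, plus strand), found in many tissues and in macrophages, was at 16.16 and 17.64 FPKM in sham, 49.74 and 53.96 in WT MI, then 87.29 and 67.37 in the labelled knockout. Its order was the reverse of most members, with sham lowest, the labelled knockout highest and no overlap. It rose by 1.56 after infarction (SE 0.14, adjusted p 1.8e-04), was 0.56 higher in the labelled knockout than in WT MI (adjusted p 0.096), and was 2.12 higher than in sham (adjusted p 2.9e-05). The FPKM ratio of Ucp3 to Ucp2 was 1.24 and 1.69 in sham, 0.0404 and 0.0999 in WT MI, then 0.137 and 0.215 in the labelled knockout. The pair thus changed order, with Ucp3 the more abundant per kilobase in sham and Ucp2 in all infarct libraries. Their coding sequences are 75% identical.

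**Figure D3:**
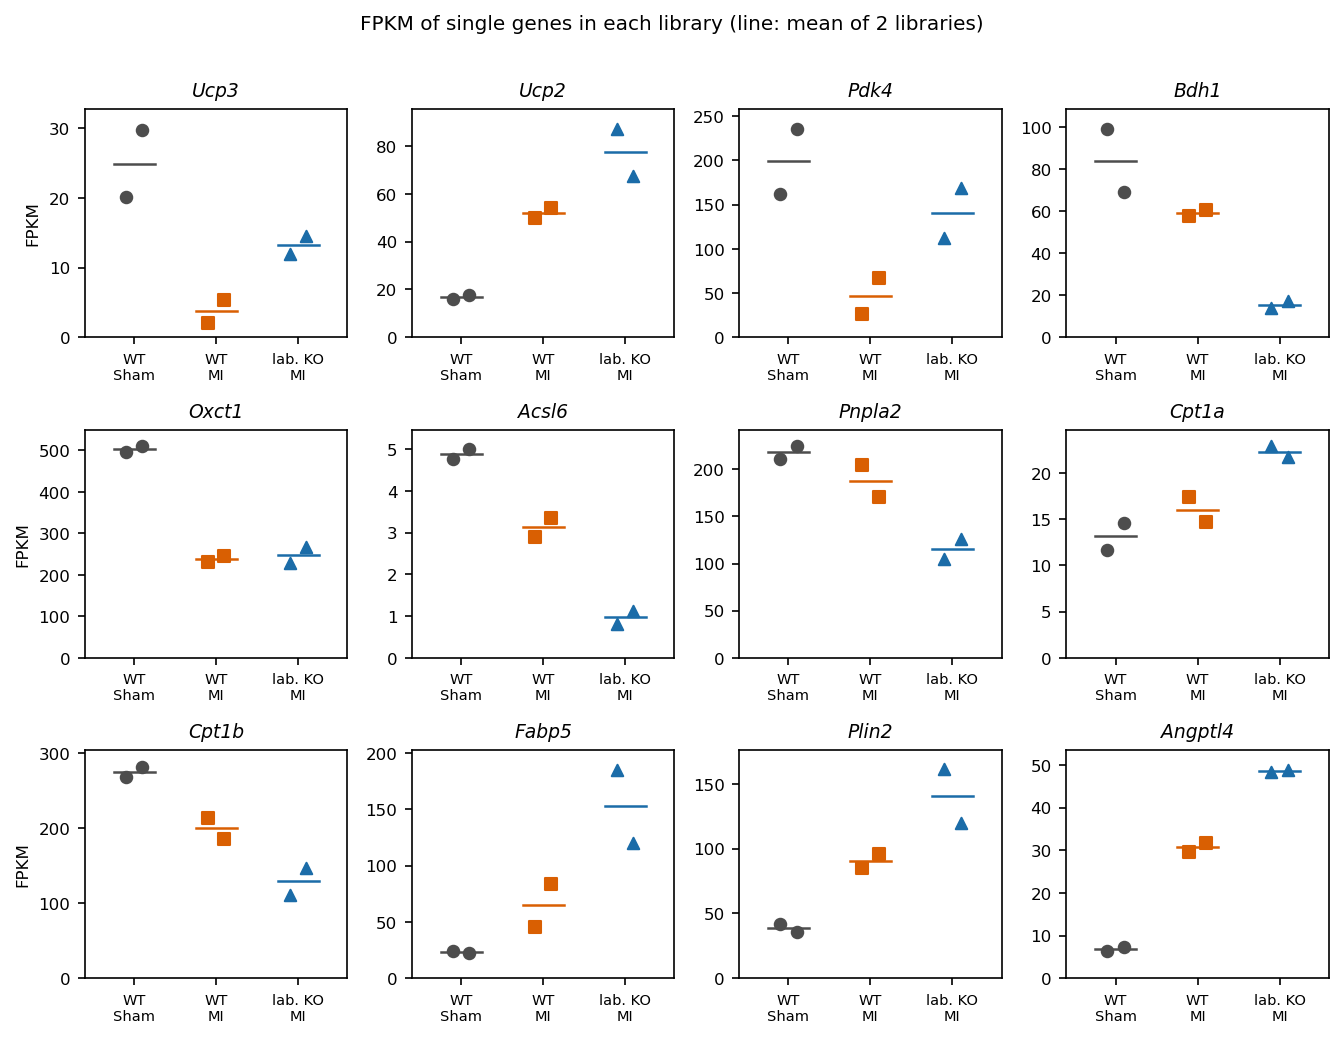
FPKM of 12 genes in each library, with 1 point per library, a line at the mean of 2 libraries, and the groups WT Sham, WT MI and labelled Card9 KO MI on the horizontal axis. Ucp3 and Pdk4 are lowest in WT MI, Bdh1 and Acsl6 are lowest in the labelled knockout, and Ucp2, Fabp5, Plin2 and Angptl4 step up through the 3 groups.

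Ketone bodies are oxidised by Bdh1, Oxct1 and Acat1 in turn, and all 3 were lower in every infarct library than in both sham libraries. The plot of single genes shows the first 2, and whether the changes of the 3 differ was not tested. Bdh1 (NCBI gene 71911, mm9 chr16:31422366-31458987, plus strand), which turns beta-hydroxybutyrate into acetoacetate, was at 98.90 and 68.84 FPKM in sham, 57.72 and 60.57 in WT MI, then 13.78 and 17.27 in the labelled knockout. The sham and WT MI values lay nearer to each other, with no overlap, and both labelled knockout libraries stood far below all other libraries. As means, Bdh1 was 83.9 ± 21.3, 59.1 ± 2.02 and 15.5 ± 2.47 FPKM (SD, n = 2 each). The log2 fold change of the labelled knockout against WT MI was −1.87 (SE 0.18, adjusted p 0.0088), the largest of the 40 members in that comparison by size. It was called in 10 of the 13 alternatives, with log2 fold changes from −2.02 to −1.65, and was lost with no filter on low values, or with WT MI replicate 1 (−1.91) or replicate 2 (−1.84) left out. WT MI against WT Sham was at −0.47 (adjusted p 0.073), at −0.73 and called without WT Sham replicate 2, and at −0.22 without replicate 1.

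Oxct1 (NCBI gene 67041), which activates acetoacetate and sets the pace of ketone use, was at 496.38 and 509.26 FPKM in sham, 230.40 and 246.19 in WT MI, then 228.34 and 267.49 in the labelled knockout. It was high in sham and lay within 228.34 to 267.49 FPKM in all 4 infarct libraries. Oxct1 had a log2 fold change of −1.07 for WT MI against WT Sham (adjusted p 2.5e-04) and 0.05 for the labelled knockout against WT MI (adjusted p 0.82). The FPKM ratio of Oxct1 to Bdh1 was 5.02 and 7.4 in sham, 3.99 and 4.06 in WT MI, then 16.6 and 15.5 in the labelled knockout. Acat1, the thiolase that ends the path, was at 193.06 and 191.00 FPKM in sham, 112.90 and 109.44 in WT MI, then 84.80 and 99.46 in the labelled knockout, and fell by 0.78 after infarction.

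Lipid droplet proteins hold fatty acids back or let them go. Pnpla2 (NCBI gene 66853, mm9 chr7:148641097-148646642, plus strand), the first lipase of stored fat, was at 211.46 and 224.54 FPKM in sham, 204.97 and 170.60 in WT MI, then 104.67 and 126.42 in the labelled knockout. Sham and WT MI were neighbours, and the labelled knockout stood apart below both. Pnpla2 had a log2 fold change of −0.22 for WT MI against WT Sham (adjusted p 0.21) and −0.70 for the labelled knockout against WT MI (adjusted p 0.049). The first value ran from −0.35 to −0.09 when 1 library was left out. The second call was present in 3 of the 13 alternatives and was lost when any 1 library other than Card9 KO MI replicate 2 was left out, with log2 fold changes of −0.83 to −0.56 over the 6 omissions.

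Lipe, the next lipase, was at 18.42 and 22.28 FPKM in sham, 16.43 and 14.45 in WT MI, then 16.53 and 22.05 in the labelled knockout, and was not called in any of the 3 comparisons on deposited FPKM. Its log2 fold change for WT MI against WT Sham was −0.37 (adjusted p 0.12) and ran from −0.60 to −0.24 over the 13 alternatives, of which upper-quartile scaling and quantile normalization called it lower. Dgat2, which makes triglyceride, was at 196.76 and 167.50 FPKM in sham, 102.64 and 98.34 in WT MI, then 63.47 and 86.94 in the labelled knockout. Plin5, which ties droplets to mitochondria, was at 50.26 and 60.57 FPKM in sham, 33.05 and 28.48 in WT MI, then 19.98 and 28.85 in the labelled knockout. Dgat2 and Plin5 were high in sham and lower in all infarct libraries, and the labelled knockout overlapped WT MI for Plin5. Dgat2 fell by 0.85 after infarction (adjusted p 0.0043) and Plin5 by 0.83 (adjusted p 0.0099), the latter not called without WT Sham replicate 2 (−0.69) or WT MI replicate 2 (−0.72). Plin2, the droplet protein of most other cells and not a member, rose by 1.2 (adjusted p 9.4e-04), from 41.79 and 36.06 to 85.03 and 95.68 FPKM, and was at 161.39 and 119.45 in the labelled knockout. The FPKM ratio of Plin5 to Plin2 was 1.2 and 1.68 in sham, 0.389 and 0.298 in WT MI, then 0.124 and 0.242 in the labelled knockout.

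The comparison of the labelled knockout with WT MI asks what the label changes in infarcted hearts, and it shares the WT MI libraries with the comparison above. Of the 40 members 3 were called lower, Acsl6, Bdh1 and Pnpla2, beside 0.587% of all genes tested. By limma 0 members were called higher, beside 0.816% of all genes. At an unadjusted p below 0.05, 21 members were lower, beside 8.57% of all genes, and 3 were higher, beside 11.5%. Both labelled knockout libraries lay below both WT MI libraries for 28 members, as for 21.9% of all genes, and above for 4, Cpt1a, Ucp3, Ucp2 and Lipe, as for 30.8%. The members' median log2 fold change was −0.27, and that of all genes was 0.04.

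**Figure D4:**
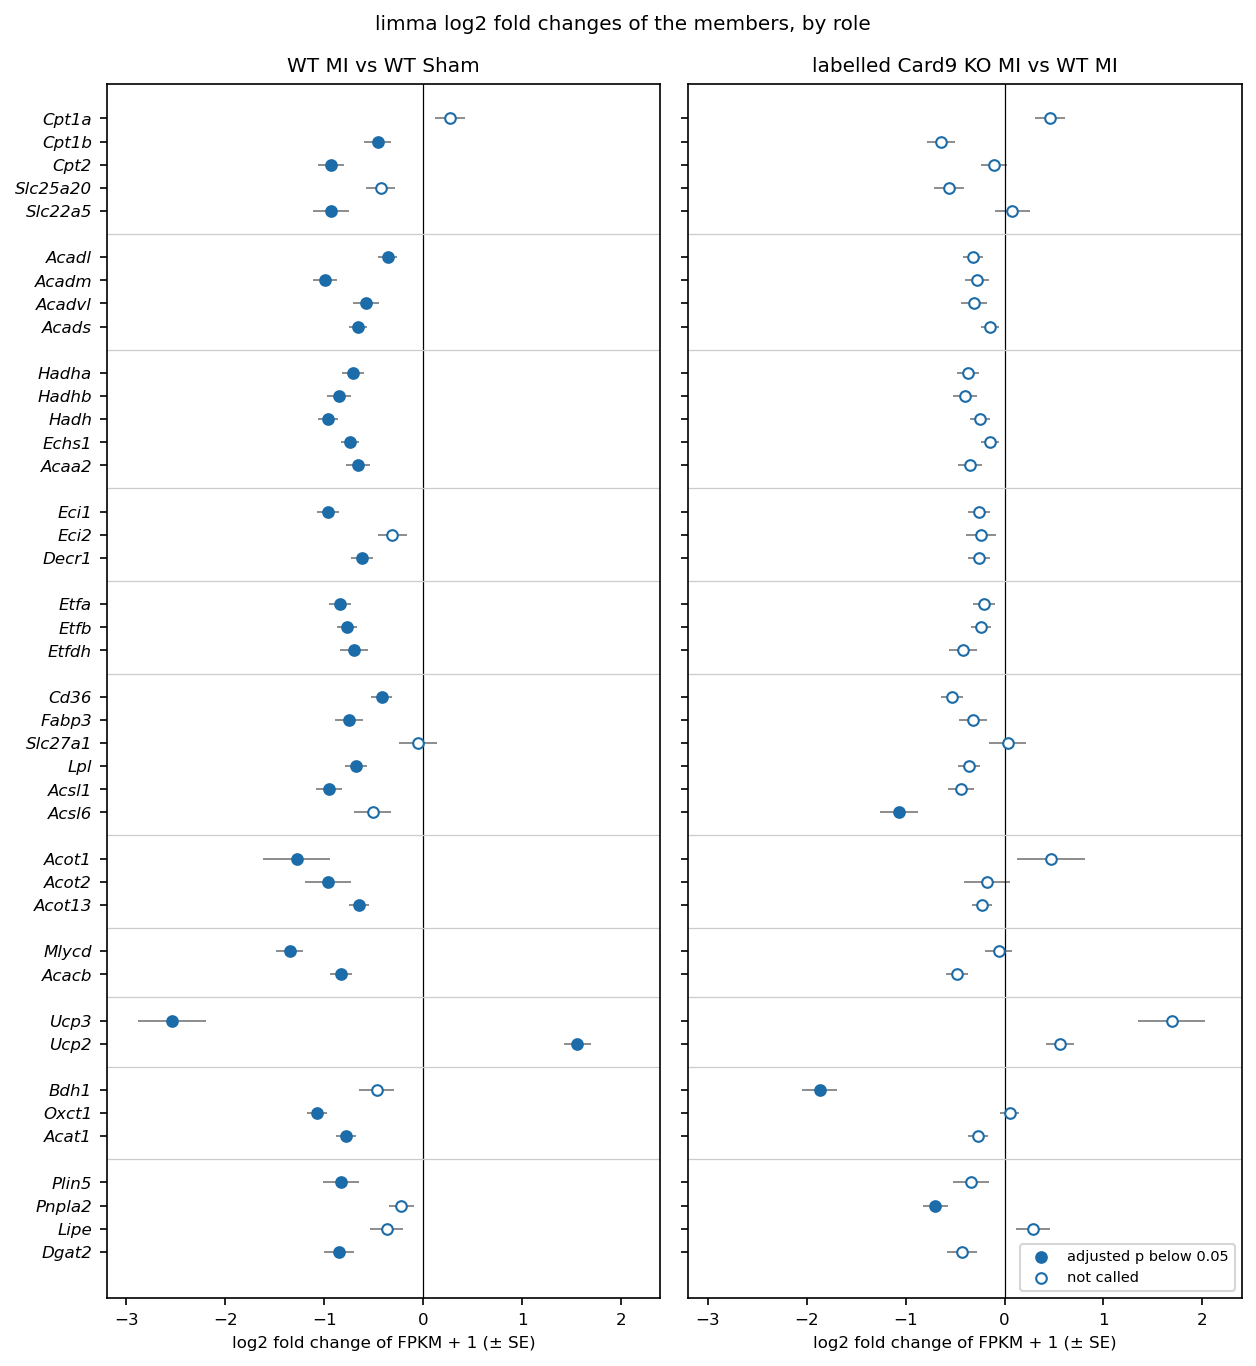
Log2 fold change of FPKM plus 1 for each member, with its standard error from limma as a bar, for WT MI against WT Sham on the left and the labelled knockout against WT MI on the right. Filled points have an adjusted p below 0.05, which are 32 members on the left and 3 on the right.

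The number of calls in the right panel of the plot of fold changes depended on single libraries. Without Card9 KO MI replicate 2 there were 5 called lower (Cpt1b, Cd36, Fabp3, Bdh1 and Pnpla2), without WT MI replicate 1 there was 0, and without WT MI replicate 2 there were 0 lower and Ucp3 higher. With either WT Sham library or Card9 KO MI replicate 1 left out there was 1. The members' median was −0.13 when Card9 KO MI replicate 1 was left out and −0.43 when replicate 2 of that group was. Replicate 1 of the labelled knockout was below replicate 2 for 36 of 40 members, with a median log2 difference of −0.26. The same held for 16 of 16 cardiomyocyte markers (−0.23), and for macrophage markers replicate 1 was the higher for 11 of 12 (0.42). The members therefore differed between these replicates together with the cell markers, and the part of cell content in the comparison was not tested. In the WT MI group replicate 1 was below replicate 2 for 17 of 40 members (0.05), and in the WT Sham group for 31 of 40 (−0.08).

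Between the labelled knockout and WT MI 1 of 16 cardiomyocyte markers was called lower by limma, with 8 lower at an unadjusted p below 0.05. The list had a median of −0.28 on the log2 scale, beside −0.27 for the members. TCA cycle genes were at −0.22 and respiratory chain genes at −0.19, with 0 called of 18 and of 42 by limma (6 and 12 lower at an unadjusted p below 0.05). The macrophage markers were at 0.66, with 0 of 12 called and 6 higher at an unadjusted p below 0.05. Fibroblast markers were at 0.65, with 3 of 8 called higher and 0 called lower by limma. At an unadjusted p below 0.05, 5 of these 8 were higher and 1 was lower. Both labelled knockout libraries lay below both WT MI libraries for all 6 neutrophil markers tested, with a median of −0.61, and limma called 0 of them (2 lower at an unadjusted p below 0.05). Erythroid markers were at −0.80 and glycolysis genes at −0.12, with 0 called of 4 and of 18 by limma (1 and 6 lower at an unadjusted p below 0.05). Their part in the members' values was not tested.

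**Figure D5:**
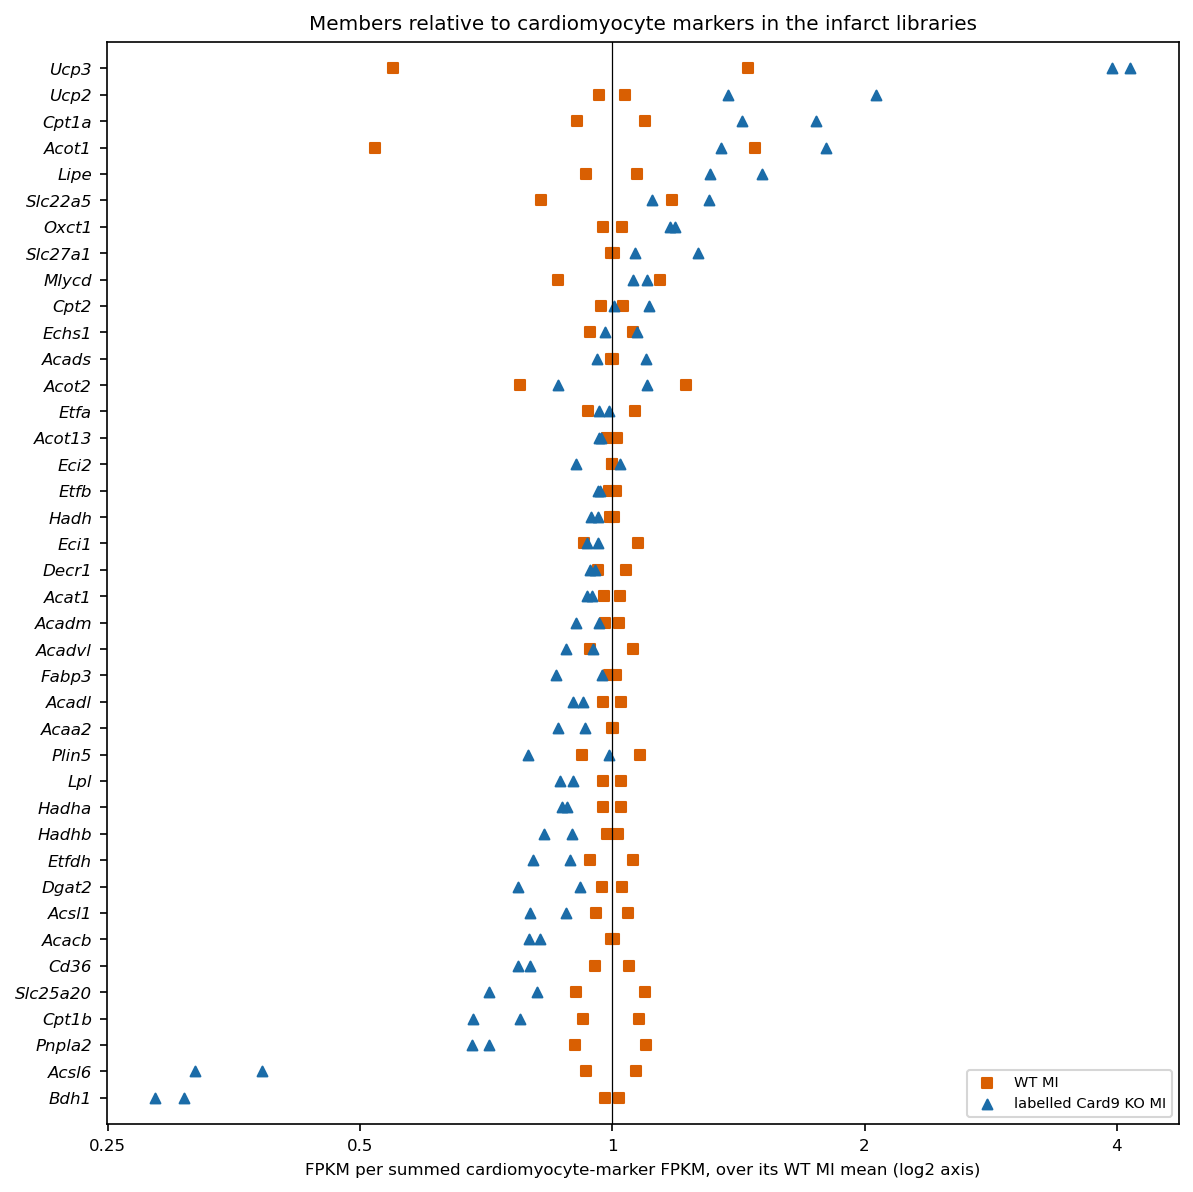
Each member's FPKM divided by the summed cardiomyocyte markers of the same library, over the WT MI mean of that ratio, on a log2 horizontal axis with 1 point per infarct library. Most members lie near 1, Bdh1, Acsl6 and Pnpla2 lie lowest in the labelled knockout, and Ucp3 lies highest.

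The plot of members relative to cardiomyocyte markers shows them on the scale of marker RNA, on which no test was made. The median ratio of the labelled knockout to WT MI was 0.943, with 22 members lower without overlap, beside 9.06% of all genes tested, 6 higher, beside 46.3%, and 12 overlapping. Bdh1 was at 0.297 of its WT MI ratio, Acsl6 at 0.350, Pnpla2 at 0.697 and Cpt1b at 0.729. At the other end Ucp3 was at 4.05, Ucp2 at 1.72 and Cpt1a at 1.59. With the geometric mean of the markers as the divisor the median was 1.01, with 13 members lower, beside 5.91% of all genes, 12 higher, beside 58.4%, and 15 overlapping, and Bdh1 (0.318), Acsl6 (0.375), Pnpla2 (0.748) and Ucp3 (4.33) kept their places at the ends. The direction of the list's median thus turned on which average of the markers was used, while these 4 genes kept their directions. Other members also kept theirs on both scales without overlap. Among them were Cpt1b (0.729 and 0.782), Cd36 (0.785 and 0.842), Ucp2 (1.72 and 1.84) and Cpt1a (1.59 and 1.71).

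The comparison of the labelled knockout with WT Sham shares libraries with both others. Of the 40 members 34 were called lower, beside 14.3% of all genes tested, and Ucp2 and Cpt1a were called higher, beside 34.8%. The median was −1.03, against 0.24 for all genes. In the same comparison 15 of 16 cardiomyocyte markers (median −0.88), 18 of 18 TCA cycle genes (−0.82) and 42 of 42 respiratory chain genes (−0.76) were called lower. Called higher were 12 of 12 macrophage markers (2.41), 7 of 8 fibroblast markers (2.59) and 6 of 6 neutrophil markers tested (2.28), the last under the same limit of the filter. Their part in the members' values was not tested. All genes split 1875 lower and 4569 higher on deposited FPKM, 2806 and 3308 after upper-quartile scaling, and 3444 and 2755 after quantile normalization, with a median of 0.04 and −0.10 after those scalings. Bdh1 was the lowest at −2.35 (adjusted p 5.5e-05), then Acsl6 at −1.58 (adjusted p 3.8e-04, and −2.24 to −0.73 over the 13 alternatives) and Mlycd at −1.41. The 4 members not called were Slc27a1, Lipe, Acot1 and Ucp3, of which Acot1 was called lower in 6 of the 13 alternatives, Ucp3 in 7 and Slc27a1 in 1, without WT Sham replicate 1. Of the 36 called members 34 were called under each of the 13 alternatives, and the exceptions were Fabp3 after quantile normalization (−0.19) and Eci2 without WT Sham replicate 2 (−0.39) or Card9 KO MI replicate 1 (−0.36).

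Other genes of the same pathways numbered 75, of which 65 could be tested. In WT MI 20 were called lower than in sham, beside 9.39% of all genes tested, and 13 higher, beside 27.7%. Their median log2 fold change was −0.11, and that of all genes was 0.19. The further genes were thus called in both directions, where the members were mostly called lower. By group, 8 of 15 other mitochondrial genes were lower and 1 higher, 7 of 15 peroxisomal genes were lower and 1 higher, 2 of 13 other uptake and activation genes were lower and 5 higher, of 7 thioesterase and malonyl-CoA synthesis genes 3 were higher, and 3 of 10 other lipid droplet genes were lower and 3 higher. Of 5 other ketone body genes limma called 0, and 0 passed an unadjusted p below 0.05.

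On the log2 of FPKM plus 1, the largest falls among them were in Pdk4, Vldlr and Ehhadh. Pdk4, which turns off pyruvate oxidation when fatty acids are burned, was at 162.41 and 235.28 FPKM in sham, 26.42 and 66.60 in WT MI, then 112.07 and 169.02 in the labelled knockout. Both WT MI libraries were the lowest, and the labelled knockout overlapped sham. It fell by 2.19 after infarction (adjusted p 0.0044) and was 1.69 above WT MI in the labelled knockout (adjusted p 0.088), or 1.04 to 2.34 when 1 library was left out. Of the 13 alternatives the replicate block called that second difference (1.69, adjusted p 0.033, over a range of 0.033 to 0.29). Vldlr, a lipoprotein receptor, was at 71.15 and 68.74, then 22.41 and 27.30, then 22.65 and 26.44 FPKM and fell by 1.46 after infarction (adjusted p 1.9e-04). Ehhadh, the peroxisomal bifunctional enzyme, was at 7.10 and 7.84, then 1.96 and 2.44, then 3.45 and 3.12 FPKM and fell by 1.41 (adjusted p 7.2e-04), or by 0.79 with a pseudocount of 5.

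On the same scale the largest rises were in Angptl4, Fabp5 and Hilpda. By the ratio of FPKM itself Slc27a3 rose more, from 0.14 FPKM in both sham libraries to 0.97 and 2.33 in WT MI. Angptl4, a secreted inhibitor of Lpl, was at 6.28 and 7.24 FPKM in sham, 29.72 and 31.76 in WT MI, then 48.31 and 48.81 in the labelled knockout. Its replicates were close and its 3 groups stepped up, while those of Lpl stepped down. It rose by 2.03 after infarction (adjusted p 3.3e-05) and was called higher in the labelled knockout than in WT MI, at 0.64 (adjusted p 0.047), a call lost in 10 of the 13 alternatives, among them leaving out any 1 library other than WT Sham replicate 1 (0.60 to 0.69). Fabp5, a binding protein of macrophages and other cells, was at 24.30 and 21.98, then 45.53 and 84.07, then 184.67 and 120.27 FPKM, and rose by 1.38 after infarction (adjusted p 0.0079). The FPKM ratio of Fabp3 to Fabp5 was 239 and 251 in sham, 72.6 and 40.6 in WT MI, then 12.7 and 25.7 in the labelled knockout. Hilpda, a droplet protein, rose by 1.37 (adjusted p 0.0011), or by 0.75 with a pseudocount of 5, from 1.96 and 2.05 to 5.76 and 7.90 FPKM.

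Between the labelled knockout and WT MI 3 of the 65 were called, 1 higher, beside 0.816% of all genes tested, and 2 lower, beside 0.587%. Angptl4 was the one higher, and Acad11 was among those lower. Acad11, an acyl-CoA dehydrogenase, was at 60.31 and 67.90 FPKM in sham, 38.58 and 38.31 in WT MI, then 22.39 and 26.20 in the labelled knockout, −0.65 from WT MI on the log2 scale (adjusted p 0.048). It stepped down through the 3 groups without overlap. The call of Acad11 was lost in 10 of the 13 alternatives, among them leaving out any 1 of the 6 libraries (−0.75 to −0.54).

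Of 10 regulators of the pathway 5 were called lower in WT MI than in sham (median log2 fold change −0.47). Ppara, a receptor activated by fatty acids, was at 19.73 and 21.80 FPKM in sham, 10.15 and 10.73 in WT MI, then 5.72 and 8.05 in the labelled knockout, and fell by 0.93 (adjusted p 0.0041). Ppargc1a, its coactivator, was at 24.94 and 26.16, then 15.14 and 15.09, then 9.70 and 12.99 FPKM and fell by 0.72 (adjusted p 0.0073). Both stepped down through the groups as most members did. Esrrg, an orphan receptor, was at 14.52 and 15.36, then 6.60 and 8.77, then 5.30 and 6.65 FPKM and fell by 0.89 (adjusted p 0.0059). Klf15, a transcription factor, fell by 0.59 (adjusted p 0.038), with 20.77 and 24.40, then 13.55 and 15.82, then 6.47 and 9.37 FPKM, and Rxra, the partner of PPAR receptors, fell by 0.36 (adjusted p 0.046). Neither of the last 2 was called with no filter on low values or when any 1 of the 4 WT libraries was left out, at −0.70 to −0.48 for Klf15 and −0.37 to −0.36 for Rxra, and Rxra was not called with the replicate block.

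The other 5 regulators were not called after infarction on deposited FPKM. Esrra was at 46.98 and 54.10 FPKM in sham, 43.94 and 43.39 in WT MI, then 34.83 and 36.49 in the labelled knockout. Its log2 fold change for WT MI against WT Sham was −0.20 (adjusted p 0.17), or −0.30 to −0.10 when 1 library was left out. It was called lower after upper-quartile scaling (−0.40) and quantile normalization (−0.38), with adjusted p from 0.024 to 0.57 over the 13 alternatives. Ppargc1b and Esrrb were at −0.47 each (adjusted p 0.066 and 0.056), and both were called lower after the same 2 scalings, as was Ppargc1b with the replicate block and Esrrb with a pseudocount of 5. Pparg was at −0.22 and Ppard at 0.13, which turned to −0.06 after upper-quartile scaling and −0.08 after quantile normalization. Between the labelled knockout and WT MI limma called 0 of the 10, with 5 lower and 1 higher at an unadjusted p below 0.05. In the labelled knockout against WT Sham 8 were called lower, with a median of −0.85.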

How the data were processed

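Heart RNA libraries, 2 in each of 3 groups, were read as FPKM values that the authors deposited per NCBI gene number. By the submitters' notes reads were mapped to mm9 with BWA and Bowtie2, and their versions, the annotation and the strand setting are not stated. Genes absent from a file were set to 0, and genes that reached 1 FPKM in 2 or more libraries were kept. The log2 of FPKM plus 1 was fitted in R 4.3.3 with limma 3.58.1 over all 3 groups, with a trend in the prior variance, and p-values were adjusted by Benjamini-Hochberg over 13120 genes. The fit was tested on simulated data in which few genes changed and no library shifted as a whole. That test does not cover the effect of scaling. Tables and figures were made with Python 3.11.15, pandas 2.3.3, numpy 2.4.6, matplotlib 3.10.9 and Biopython 1.88, the last for global alignment of sequences.

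Members and lists (other pathway genes in 6 groups, regulators, TCA cycle, respiratory chain, glycolysis, and markers of cardiomyocytes, macrophages, neutrophils, fibroblasts, endothelium, adipocytes, brown adipocytes and erythroid cells) were chosen with earlier results of these data known. Named in full for each role were the member of highest mean FPKM, that of largest change in WT MI, those called between infarct groups and those opposite to their role. Named from other pathway lists were the 3 largest called changes in each direction and up to 5 called between infarct groups, of which 1 is not reported here. Plin2, the sequences of Acsl6 and of Hadha-Hadhb, and Cd36, Lpl, Acat1 and Plin5 in full were chosen after their values were seen. Alternatives were a pseudocount of 0.1 or 5, no filter, upper-quartile scaling, quantile normalization, a fit of only the 2 groups compared, a replicate block, and leaving out each library.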

Additional observations from a re-analysis of the deposited data

How the results depend on the processing

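Each of the 13 alternatives changed 1 choice. In the infarct comparison 24 of 32 called members, and against sham 34 of 36 in the labelled knockout, were called under all of them, and no called member changed sign. Between infarct groups 0 of the 3 called members were called under all. Where a value changed, the cause was not tested. A group left with 1 library is assumed to vary like the others. With 2 libraries in each group, at about 3007000 to 4272000 estimated fragments, small changes and members at a few FPKM are measured with little precision. No label pairs samples by replicate number. Correlations across genes of replicate differences were 0.00244 (sham and WT MI), −0.00828 (sham and Card9 KO MI) and 0.0204 (WT MI and Card9 KO MI). Such values show no broad shift shared by replicate number, and they cannot show that the samples are unpaired.

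For Card9 KO MI against WT MI, members called lower were 1 with pseudocount 0.1, 0 with no filter on low values, 1 with only the 2 groups compared, 1 with the replicate block, and 0 to 5 when 1 library was left out. Members called higher were 1 with pseudocount 5, 1 with the replicate block, and 0 to 1 when 1 library was left out. All genes called lower were 33 with pseudocount 0.1, 5 with no filter, 118 with quantile normalization, 32 with only the 2 groups, 26 with the replicate block and 4 to 68 with 1 library left out. All genes called higher were 47 with pseudocount 0.1, 200 with pseudocount 5, 7 with no filter, 69 with only the 2 groups, 45 with the replicate block and 5 to 100 with 1 library left out.

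For WT MI against WT Sham, all genes called lower were 2064 with upper-quartile scaling, 2447 with quantile normalization and 647 to 1221 with 1 library left out. Those called higher were 2198 with quantile normalization and 2292 to 3528 with 1 library left out. For Card9 KO MI against WT Sham, quantile normalization gave 3444 lower and 2755 higher.

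Some members and regulators that were not called changed sign. For Card9 KO MI against WT MI, Slc22a5 was at −0.02 after quantile normalization and Slc27a1 at −0.01 after upper-quartile scaling. With 1 library left out, log2 fold changes ran from −0.28 to 0.07 for Cpt2, −0.14 to 0.31 for Slc22a5, −0.07 to 1.01 for Acot1, −0.49 to 0.13 for Acot2, −0.24 to 0.12 for Mlycd and −0.06 to 0.17 for Oxct1. For WT MI against WT Sham they ran from −0.39 to 0.28 for Slc27a1 and −0.44 to 0.00 for Pparg, while Ppard was at −0.06 after upper-quartile scaling and −0.08 after quantile normalization, and for Card9 KO MI against WT Sham from −0.36 to 0.31 for Slc27a1 and −0.28 to 0.12 for Lipe.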
